A study of Homo sapiens with 6 samples.

Results

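Matrix metalloproteinases (MMPs) and their tissue inhibitors (TIMPs) were examined after siRNA against KMT2C in Ker-CT, an established line of human keratinocytes whose life span was extended with telomerase and CDK4. The 10 genes were taken by symbol from the 58302 gene entries of the deposited table, and each matched 1 Ensembl identifier. They comprise 7 proteases (MMP1, MMP2, MMP3, MMP9, MMP10, MMP13 and MMP14) and 3 inhibitors (TIMP1, TIMP2 and TIMP3). The siKMT2C group held 3 libraries from cells given KMT2C siRNA, and the siNC group held 3 libraries from cells given negative-control siRNA. The cells of all 6 libraries received M5 for 24 h, a mix of 5 cytokines at 10 ng/ml each (TNF-α, IL-1α, oncostatin M, IL-17A and IL-22), so no unstimulated state was compared. KMT2C is a histone H3 lysine 4 methyltransferase, and the comparison asks what lowering its transcript does to expression in keratinocytes in a psoriasis-like state. One cell line was used, and the siRNA sequences are not given in the labels.

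MMPs are zinc-dependent endopeptidases that are made as inactive precursors and, once activated, cleave collagens, other matrix proteins and cell surface proteins. TIMPs bind the active site of the mature enzymes, and MMP14 together with TIMP2 forms the surface complex that activates the MMP2 precursor. In skin, keratinocytes at wound edges and in inflamed epidermis are known sources of MMP1, MMP9 and MMP10, and expression of several of these genes is induced by cytokines through AP-1 sites near their start.

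RefSeq sequence of the region before the transcription start was at hand for 4 of the 10 genes. These 4 span the range of expression described here, with 2 abundant genes (TIMP1 and MMP14), the member with the smallest p (TIMP3) and one of the least detected (MMP10). Each sequence runs 5′ to 3′ on the gene's own strand (GRCh38.p14) and stops before the first annotated transcribed base. Capitals mark matches on either strand. The words searched were GGGCGG for the GC box, TATAAA for the TATA box, AGGAAG for ETS factors, and TGAGTCA for AP-1.

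TIMP3, chr22:32801455-32801700, plus strand: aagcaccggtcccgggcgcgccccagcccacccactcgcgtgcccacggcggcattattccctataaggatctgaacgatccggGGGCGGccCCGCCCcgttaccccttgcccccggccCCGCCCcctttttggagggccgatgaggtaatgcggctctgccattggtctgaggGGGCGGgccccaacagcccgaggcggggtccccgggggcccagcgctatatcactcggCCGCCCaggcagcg
TIMP1, chrX:47582186-47582312, plus strand: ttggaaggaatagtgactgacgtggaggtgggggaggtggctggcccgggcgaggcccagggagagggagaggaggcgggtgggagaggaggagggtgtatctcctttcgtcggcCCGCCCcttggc
MMP14, chr14:22836335-22836556, plus strand: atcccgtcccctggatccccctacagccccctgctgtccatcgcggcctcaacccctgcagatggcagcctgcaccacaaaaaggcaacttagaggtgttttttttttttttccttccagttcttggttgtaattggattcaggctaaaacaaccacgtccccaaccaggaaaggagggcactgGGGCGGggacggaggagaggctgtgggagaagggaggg
MMP10, chr11:102780629-102780878, minus strand: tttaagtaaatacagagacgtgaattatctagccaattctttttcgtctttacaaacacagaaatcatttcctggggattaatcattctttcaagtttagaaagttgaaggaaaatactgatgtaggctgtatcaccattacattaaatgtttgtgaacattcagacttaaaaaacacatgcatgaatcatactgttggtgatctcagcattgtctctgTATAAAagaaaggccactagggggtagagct

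The TIMP3 stretch was 72.0% G and C and held 5 GC boxes, a word found in 42.2% of 35116 RefSeq promoters of the same window. The TIMP1 and MMP14 stretches held 1 GC box each, against 21.8% and 39.2% of promoters in windows of their lengths. The MMP10 stretch was 34.4% G and C and held 1 TATA box, which 10.7% of promoters have, starting 31 bases before the start. None of the 4 stretches held the AP-1 word, which occurs in 4.20% of the 250-base windows, or the ETS word, which occurs in 28.7%. These matches describe letters only.

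The siKMT2C libraries held 15921870 to 16414777 counts and the siNC libraries 14409277 to 17539519, and a floor of 3 counts corresponds to 0.171 to 0.208 CPM (counts scaled to library size). KMT2C measured 32.0, 30.8 and 27.3 CPM in siKMT2C against 87.9, 82.0 and 72.6 CPM in siNC, a log2 fold change of -1.43 (SE 0.14, edgeR adjusted p = 0.00786). That call was lost without siKMT2C replicate 1 or 2 or siNC replicate 2 (adjusted p = 0.0634, 0.0507 and 0.0593). Nothing in the labels says whether replicates were separate cultures, so p-values measure only the spread between these libraries. The 10 keratinocyte markers summed to 10240 to 14373 CPM in siKMT2C and 10882 to 16646 CPM in siNC. None of them was called, and 8 had negative and 2 positive log2 fold changes. The smallest p were those of ITGA6 (-0.51, edgeR adjusted p = 0.0665), PERP (0.62, adjusted p = 0.0676) and TP63 (-0.69, adjusted p = 0.144). The 5 endothelial markers summed to at most 0.0642 CPM in siKMT2C and 0.208 CPM in siNC, with PECAM1 and CDH5 at 0. The 6 leukocyte markers summed to 13.2 to 14.7 CPM in siKMT2C and 9.90 to 14.9 CPM in siNC, mostly CD68, with PTPRC and CD3E at 0 and CD14 at 3, 5 and 2 counts in siKMT2C against 17, 14 and 19 in siNC (-2.23, edgeR adjusted p = 0.0534). The 5 melanocyte markers summed to 6.67 to 8.35 CPM in siKMT2C and 6.99 to 15.1 CPM in siNC, mostly MITF (-0.82, edgeR adjusted p = 0.289), with TYR and DCT at 0.

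None of the 7 members with enough counts for the edgeR test passed it, while 226 of 15063 genes did (1.5%; 0.69% higher and 0.81% lower in siKMT2C; adjusted p under 0.05). The other 3 members, MMP3, MMP10 and MMP13, were left out as too low. Of the 7, 3 had positive and 4 negative log2 fold changes. Their median was -0.08, and that of all genes tested was -0.0025. At an unadjusted p under 0.05 the count was 1 of the 7 members, TIMP3, and 2548 of all 15063 genes tested. DESeq2 called 1 member, TIMP3 again, where it called 5.68% of genes.

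**Figure D1:**
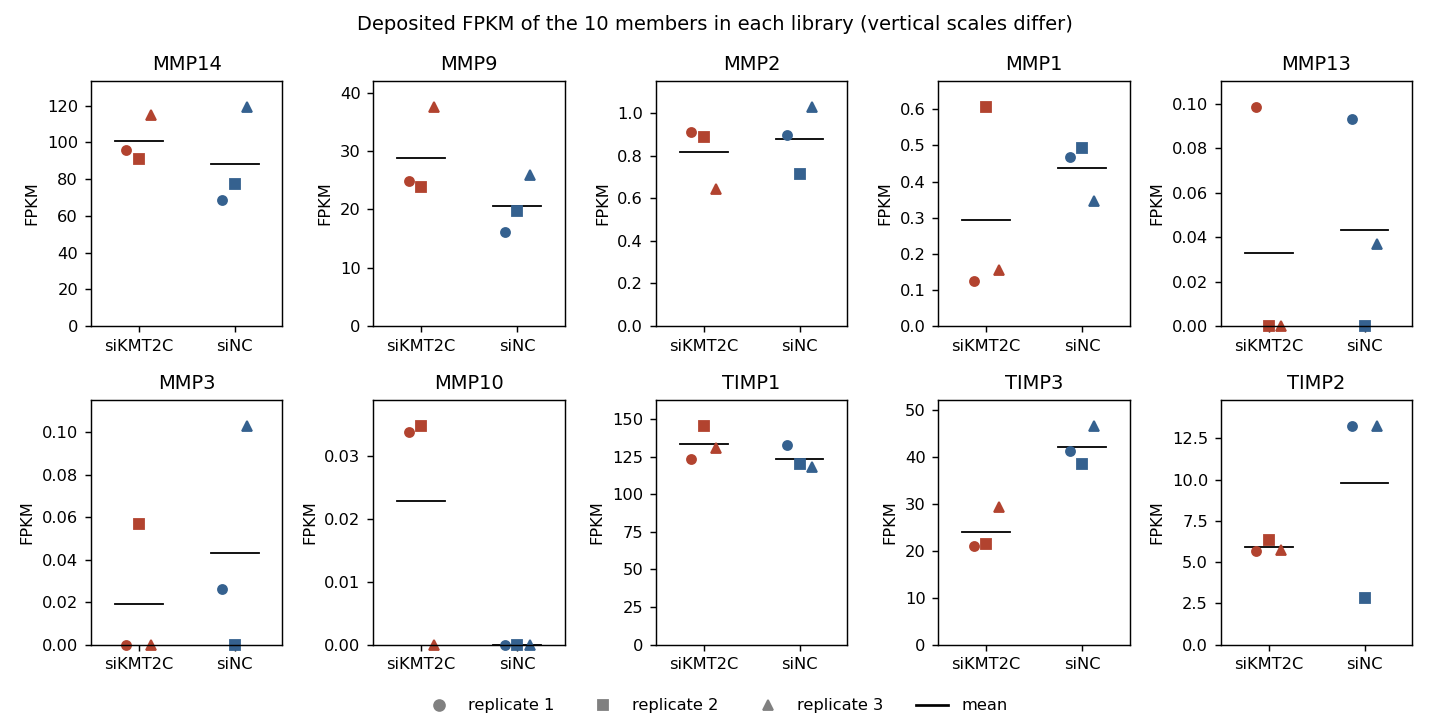
FPKM of each member (vertical axes, linear from 0 and scaled separately) in the 3 siKMT2C and 3 siNC libraries, with marker shape for the replicate and a bar for the group mean. TIMP3 is the single one of the 7 tested members whose groups do not overlap, at 21.1 to 29.3 FPKM in siKMT2C and 38.4 to 46.6 FPKM in siNC. Of all tested genes, 24.1% do not overlap in CPM. TIMP2 in siNC replicate 2 lies at 2.81 FPKM against 13.3 in the other siNC libraries.

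Levels between genes are compared as FPKM, which the authors scaled for length and depth. Over the 6 libraries TIMP1 averaged 128 FPKM, above 98.6% of tested genes, and MMP14 averaged 94.6 FPKM, above 98.3%. TIMP3 averaged 33.0, MMP9 24.7 and TIMP2 7.85 FPKM. MMP2 followed at 0.848 and MMP1 at 0.366 FPKM, below most tested genes. MMP13, MMP3 and MMP10 lay last, at 0.0381, 0.0310 and 0.0114 FPKM. In that order the ranges of TIMP1 and MMP14 overlapped, as did those of TIMP3 and MMP9 and those of the last 3 genes, and all other neighbours were separated in every library.

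Among the proteases, the membrane-anchored MMP14 and the gelatinase MMP9 made up 98.6% to 99.5% of the summed FPKM of the 7 MMPs in siKMT2C and 98.3% to 99.0% in siNC. MMP14 (ENSG00000157227, chromosome 14, 22836557 to 22849027, GRCh38) measured 96.0, 91.2 and 115 FPKM in siKMT2C against 68.9, 77.3 and 119 FPKM in siNC. The groups overlapped, and siNC replicate 3 was the highest of all 6 libraries. Its log2 fold change was 0.21 (SE 0.21, 95% interval -0.27 to 0.70, edgeR adjusted p = 0.669), and without siNC replicate 3 it was 0.48 (adjusted p = 0.0962).

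MMP9 (ENSG00000100985, chromosome 20, 46008908 to 46016561) cleaves denatured collagen and basement membrane collagen. It measured 24.9, 23.9 and 37.5 FPKM in siKMT2C against 16.1, 19.8 and 25.9 FPKM in siNC. The third replicate was the highest in both groups, for MMP9 as for MMP14, and siNC replicate 3 lay above siKMT2C replicates 1 and 2. The MMP9 log2 fold change was 0.51 (SE 0.24, 95% interval -0.03 to 1.05, edgeR adjusted p = 0.325). It ranged from 0.27 without siKMT2C replicate 3 to 0.70 without siNC replicate 3 and was called in neither.

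The second gelatinase, MMP2 (ENSG00000087245, chromosome 16, 55389700 to 55506691), was low at 0.913, 0.889 and 0.645 FPKM in siKMT2C against 0.896, 0.715 and 1.03 FPKM in siNC. The groups overlapped almost entirely, with a log2 fold change of -0.08 (SE 0.22, 95% interval -0.60 to 0.44, edgeR adjusted p = 0.896). Its sign turned without siKMT2C replicate 3 (0.064) or siNC replicate 3 (0.031).

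The remaining proteases lie together on the minus strand of chromosome 11, between 102770503 and 102955734 (GRCh38). The interstitial collagenase MMP1 (ENSG00000196611) had 4, 19 and 5 counts in siKMT2C against 16, 14 and 12 in siNC. Replicate 2 of siKMT2C was the highest library and the other siKMT2C libraries the lowest. Its log2 fold change of -0.53 (SE 0.60, 95% interval -1.92 to 0.85, edgeR adjusted p = 0.716) became -1.60 without siKMT2C replicate 2 (adjusted p = 0.273), -0.16 without replicate 1 and -0.22 without replicate 3 of that group.

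The collagenase MMP13 (ENSG00000137745) had 5, 0 and 0 counts in siKMT2C against 5, 0 and 2 in siNC. The stromelysin MMP3 (ENSG00000149968) had 0, 2 and 0 counts in siKMT2C against 1, 0 and 4 in siNC, and the stromelysin MMP10 (ENSG00000166670) had 1, 1 and 0 in siKMT2C against 0 in each siNC library. These genes lay around the floor of 3 counts a library, and a difference between groups was not detectable at this depth.

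TIMP3 (ENSG00000100234, chromosome 22, 32801701 to 32863043, plus strand) encodes the inhibitor that stays bound to the extracellular matrix and also inhibits ADAM proteases. It measured 21.1, 21.4 and 29.3 FPKM in siKMT2C against 41.2, 38.4 and 46.6 FPKM in siNC. All siKMT2C libraries lay below all siNC libraries, a separation that 24.1% of all tested genes also show. The log2 fold change was -0.78 (SE 0.16, 95% interval -1.16 to -0.41), which corresponds to 58.1% of the siNC level, and the edgeR adjusted p was 0.0650. It was called with DESeq2 (adjusted p = 0.00238, where 5.68% of genes were called). Without the low-count filter TIMP3 was also called (edgeR adjusted p = 0.0358, where 1.04% of genes were called). With 1 library left out it was called in 0 of 6 fits (edgeR adjusted p from 0.0552 to 0.275). The interval excludes 0 for this gene taken alone, and the test over all genes was missed.

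TIMP2 (ENSG00000035862, chromosome 17, 78852977 to 78925387, minus strand) measured 5.68, 6.34 and 5.71 FPKM in siKMT2C against 13.3, 2.81 and 13.3 FPKM in siNC. The siKMT2C libraries were close to each other, while siNC replicate 2 lay below all of them and the other siNC libraries lay above. In counts TIMP2 had 881, 954 and 884 in siKMT2C against 2170, 383 and 2198 in siNC. Its log2 fold change was -0.70 (SE 0.49, 95% interval -1.82 to 0.42, edgeR adjusted p = 0.523), and -1.14 without siNC replicate 2 (SE 0.15, adjusted p = 0.0648). Among 10026 tested genes with a mean of at least 10 CPM, TIMP2 had the 11th lowest value of siNC replicate 2 relative to the other siNC libraries, at -2.20 on the log2 scale, and 15 genes lay more than 2 below.

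TIMP1 (ENSG00000102265, chromosome X, 47582313 to 47586789, plus strand), a secreted inhibitor that acts weakly on MMP14, was the most abundant member. It measured 123, 145 and 131 FPKM in siKMT2C against 133, 120.3 and 118 FPKM in siNC, with overlap between the groups. The log2 fold change was 0.14 (SE 0.12, 95% interval -0.15 to 0.42, edgeR adjusted p = 0.639), and the interval does not reach the TIMP3 value of -0.78.

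TIMP1, TIMP2 and TIMP3 overlap other genes on GRCh38. TIMP1 lies within SYN1 and TIMP3 within SYN3 on the opposite strand, and TIMP2 overlaps CEP295NL on its own strand. SYN1 had 21, SYN3 6 and CEP295NL 24 counts over the 6 libraries, few beside the counts of the TIMPs. MMP9 overlaps SLC12A5-AS1 on the opposite strand, which had 87 counts in all. Whether counting used strand is not stated.

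Fibroblasts are known to make TIMP2, TIMP3 and MMP2. The 8 fibroblast markers summed to 13.7 to 17.7 CPM in siKMT2C and 21.1 to 31.5 CPM in siNC, with PDGFRA at 0 counts except for 3 in siNC replicate 3. Most of that sum was COL1A1, at 10.6 mean CPM in siKMT2C and 18.1 mean CPM in siNC. None of the 4 tested genes of the list was called, 3 with negative and 1 with a positive log2 fold change. DCN was at -1.57 (SE 0.32, edgeR adjusted p = 0.0589), COL1A1 at -0.77 (SE 0.19, adjusted p = 0.103) and COL1A2 at -0.33 (SE 0.54). The positive one was COL3A1, at 0.78 (SE 0.52, edgeR adjusted p = 0.506). LUM, not tested, had 9, 2 and 12 counts in siKMT2C against 7, 6 and 1 in siNC. Also not tested were PDGFRB, with 3, 4 and 4 counts in siKMT2C against 4, 3 and 13 in siNC, and THY1. THY1 had 2, 3 and 3 counts in siKMT2C against 8, 10 and 6 in siNC. The part of these transcripts in the TIMP values was not tested. In bulk RNA, fewer cells of a type and less RNA per cell cannot be told apart.

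**Figure D2:**
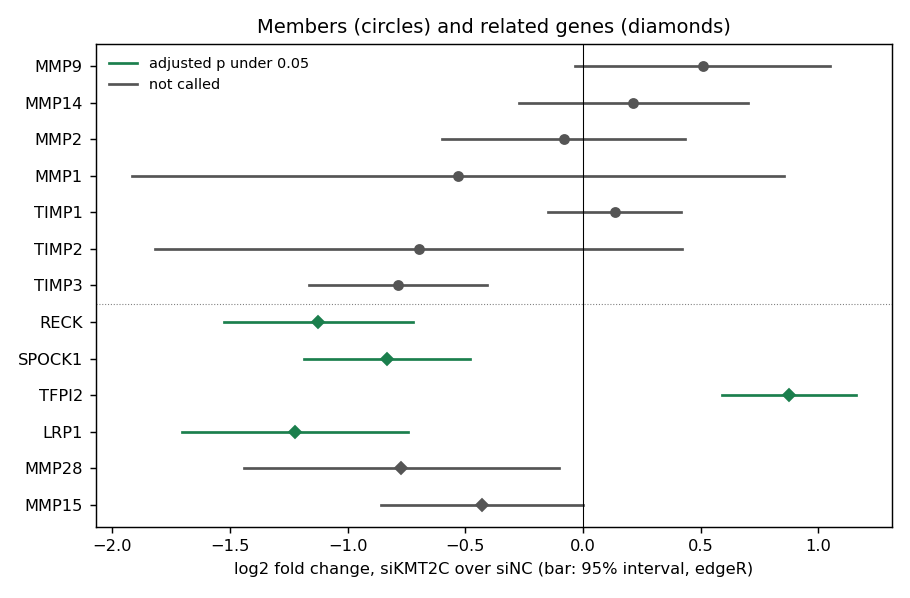
Log2 fold change, siKMT2C over siNC (horizontal axis), with 95% interval from edgeR for the 7 tested members (circles) and 6 related genes (diamonds), green where the adjusted p was under 0.05. The members' intervals include 0 apart from that of TIMP3 (-1.16 to -0.41), and no member is green.

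Ratios of FPKM within a library give the balance of protease and inhibitor transcripts, described here without a test. MMP14 over TIMP3 was 4.55, 4.25 and 3.91 in siKMT2C against 1.67, 2.01 and 2.56 in siNC, so every siKMT2C library lay above every siNC library. TIMP3 alone also separated the groups, while MMP14 alone overlapped. TIMP3 took 14.0%, 12.4% and 17.7% of the summed TIMP FPKM in siKMT2C against 22.0%, 23.8% and 26.2% in siNC. TIMP1 took the largest share in each library, at 78.8% to 84.0% in siKMT2C and 66.3% to 74.5% in siNC. MMP14 over TIMP2 was 16.9, 14.4 and 20.1 in siKMT2C against 5.19, 27.5 and 8.98 in siNC, where siNC replicate 2 was above all others.

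MMP9 over TIMP1 was 0.202, 0.164 and 0.287 in siKMT2C against 0.121, 0.165 and 0.220 in siNC, with overlap. The 3 TIMPs together over the 7 MMPs gave 1.23, 1.48 and 1.08 in siKMT2C against 2.17, 1.64 and 1.21 in siNC. TIMP transcripts thus outweighed MMP transcripts in every library. On that summed ratio the groups overlapped, through siNC replicate 3.

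**Figure D3:**
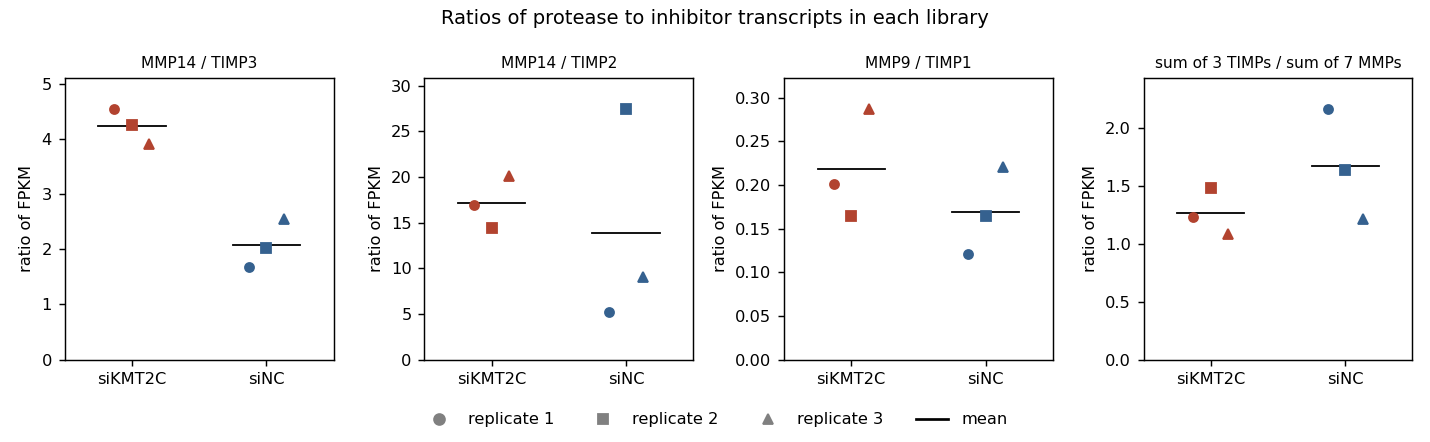
Ratios of FPKM (vertical axes, linear from 0) in each library, siKMT2C left and siNC right, with marker shape for the replicate and a bar for the group mean. MMP14 over TIMP3 separates the groups (3.91 to 4.55 in siKMT2C, 1.67 to 2.56 in siNC), as TIMP3 alone does. The other 3 ratios overlap.

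Genes known to act on MMPs from outside the 10 members were examined by list. The lists were chosen with earlier results of these data known, so their counts are no test of a class of genes. Of 6 other inhibitors listed, 4 were tested, 2 fell and 1 rose, where 0.81% of all tested genes fell and 0.69% rose. RECK (ENSG00000122707), a membrane-anchored inhibitor of MMP2, MMP9 and MMP14, fell to 7.95, 7.71 and 8.17 CPM in siKMT2C, against 20.3, 16.7 and 15.0 CPM in siNC. The log2 fold change of RECK was -1.12 (SE 0.17, edgeR adjusted p = 0.0309). SPOCK1, which encodes the proteoglycan testican-1, fell to 17.9, 20.6 and 19.2 CPM in siKMT2C, against 38.5, 34.6 and 29.6 CPM in siNC. Its log2 fold change was -0.83 (SE 0.15, edgeR adjusted p = 0.0462).

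TFPI2, a secreted Kunitz-type inhibitor of plasmin and other serine proteases, rose to 199, 232 and 238 CPM in siKMT2C, against 124, 125 and 116 CPM in siNC. Its log2 fold change was 0.88 (SE 0.12, edgeR adjusted p = 0.0243). TIMP4, the fourth TIMP, averaged 1.42 CPM in siKMT2C and 1.10 CPM in siNC and was not called (0.37, SE 0.35). The list's median was -0.23.

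Of 10 surface partners of MMPs and TIMPs, all were tested and 2 fell (0.81% of all tested genes fell). They were RECK, already counted among the other inhibitors, and LRP1, the endocytic receptor that clears MMP9 and TIMP complexes. LRP1 fell to 83.3, 65.3 and 85.2 CPM in siKMT2C, against 143, 168 and 235 CPM in siNC, a log2 fold change of -1.22 (SE 0.21, edgeR adjusted p = 0.0352). The adhesion receptor CD44, a docking site for MMP9, had a log2 fold change of 0.14 (SE 0.12), and BSG, an inducer of MMPs, -0.23 (SE 0.20). Also among the 8 not called, SDC1 was at 1.02 (SE 0.22, edgeR adjusted p = 0.0718), ITGAV at -0.70 (SE 0.14, adjusted p = 0.0624) and ITGA2 at -0.38 (SE 0.14). In the list 3 values were positive and 7 negative. The groups did not overlap for 6 of the 10, where 24.1% of all tested genes do not overlap. The list's median was -0.23.

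**Figure D4:**
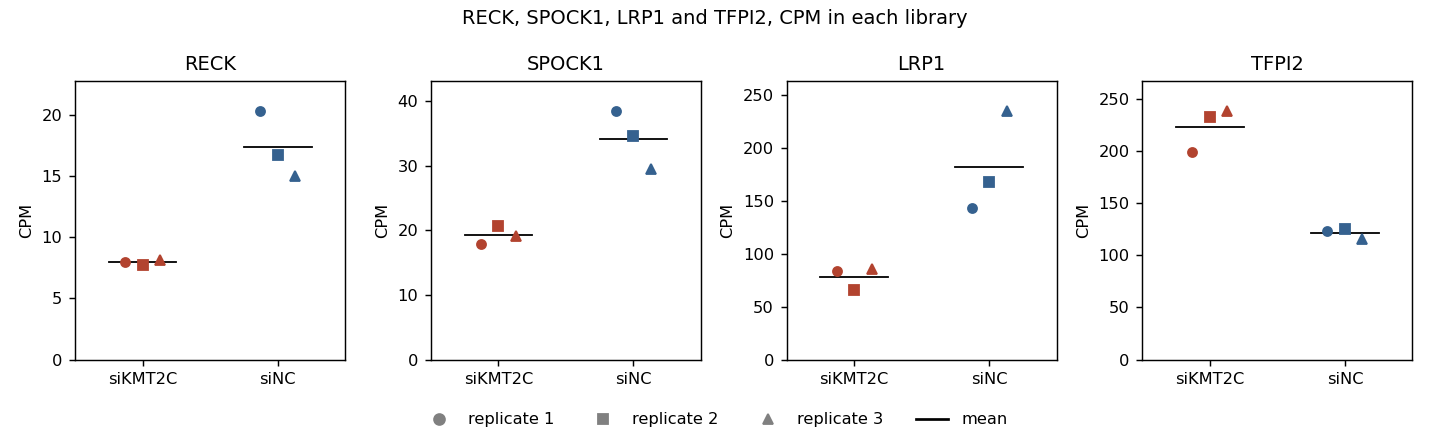
CPM (vertical axes, linear from 0) of RECK, SPOCK1, LRP1 and TFPI2, with 3 libraries per group, marker shape for the replicate and a bar for the group mean. RECK, SPOCK1 and LRP1 are lower in all siKMT2C libraries and TFPI2 is higher, with no overlap between groups. Of all tested genes, 24.1% do not overlap in CPM, and the genes shown were called in the same comparison.

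RECK, SPOCK1, LRP1 and TFPI2 stayed called without siNC replicate 3 and were lost without any 1 of the other 5 libraries, where edgeR adjusted p ran from 0.0511 (LRP1, without siNC replicate 1) to 0.230 (SPOCK1, without siKMT2C replicate 1). Their log2 fold changes kept their sign throughout. SPOCK1 was also not called with limma-voom (adjusted p = 0.0515).

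The lists that follow held no called gene. Of 16 further MMPs, 8 were tested, 2 with positive and 6 with negative values and a median of -0.28. MMP28 (epilysin, found in keratinocytes) measured 6.61, 8.03 and 8.48 CPM in siKMT2C against 10.8, 9.34 and 19.3 CPM in siNC (-0.77, SE 0.29, edgeR adjusted p = 0.229). The groups did not overlap for MMP28 or for the membrane-type MMP15 (-0.43, SE 0.19, edgeR adjusted p = 0.295), 2 of the 8 tested, where 24.1% of all tested genes do not overlap. MMP19 (0.21, SE 0.18) and MMP17 (-0.53, SE 0.49) were the next by p. MMP7, MMP8, MMP12, MMP20, MMP26 and MMP27 had no count in any library.

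Of 15 ADAM and ADAMTS proteases 8 were tested, with a median of 0.03. ADAM15 (0.86, SE 0.19, edgeR adjusted p = 0.0734) and ADAM8 (-0.53, SE 0.16, edgeR adjusted p = 0.141) had the smallest p, and the shedding enzymes ADAM17 (-0.27, SE 0.16) and ADAM10 (0.22, SE 0.15) followed. Of 8 proprotein convertases and membrane serine proteases with their inhibitors, 7 were tested with a median of -0.10. FURIN, which activates the MMP14 precursor, had a log2 fold change of -0.25 (SE 0.21), the channel-activating protease PRSS8 -0.51 (SE 0.19), and ST14 -0.14 (SE 0.20) and SPINT1 -0.10 (SE 0.19), whose sign turned without siNC replicate 3.

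All 18 transcription factors known to act on MMP promoters were tested, 9 with positive and 9 with negative values and a median of 0.0028. The AP-1 members FOSL2 (-0.85, SE 0.17) and FOSL1 (0.55, SE 0.19), ETS1 (0.56, SE 0.14) and STAT3 (0.40, SE 0.12) had the smallest p, at edgeR adjusted p of 0.0613 up to 0.200. All 17 matrix substrates were tested, with a median of -0.13. Foremost were the laminin chain LAMA5 (-0.90, SE 0.19), the hemidesmosomal collagen COL17A1 (0.72, SE 0.16), perlecan (HSPG2, -0.70, SE 0.16) and COL1A1 (-0.77, SE 0.19), at edgeR adjusted p of 0.0619 up to 0.103.

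Patterns across the 6 libraries were compared by Pearson's r of log2 CPM with 11468 other protein-coding genes, as a description. For TIMP3 the highest values were those of SMIM3 and LYPD3 (both 0.993) and DKK3 (0.992), and 378 genes exceeded 0.9. For TIMP1 they were ATP6V1C2 (0.994), MPC1 (0.984) and SPX (0.979), and 113 genes exceeded 0.9. None of these 6 genes was called, and points within a group share its treatment.

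**Figure D5:**
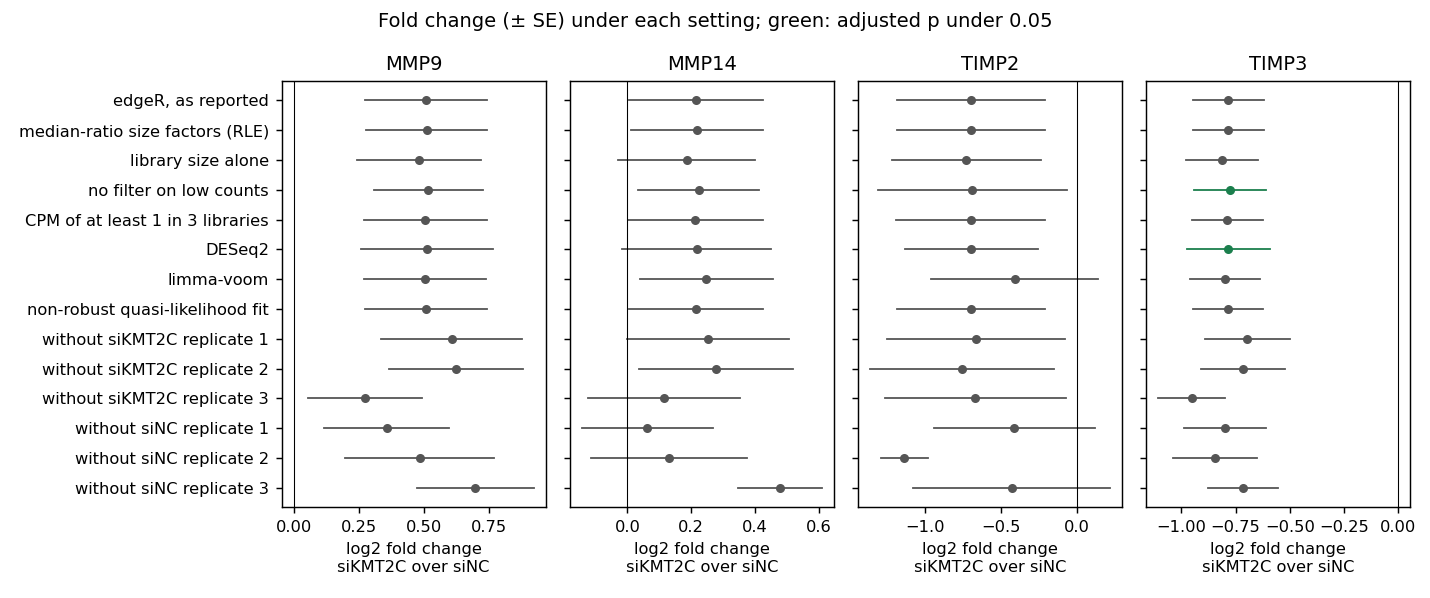
Log2 fold change, siKMT2C over siNC (horizontal axes, with SE bars), of MMP9, MMP14, TIMP2 and TIMP3, green where the adjusted p was under 0.05. Shown are the processing settings other than the replicate block, which is left out of the figure, and the fits with each library left out. TIMP3 stays between -0.95 and -0.70, and TIMP2 spans -1.14 to -0.41, with its narrowest bar without siNC replicate 2.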

How the data were processed

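For each of the 6 libraries the authors deposited unnormalised read counts and FPKM, per the file headers. CASAVA 1.8 and TopHat2 2.0.6 appear in the submitters' processing notes. These notes name a mouse build while identifiers are human Ensembl ones. The human build, annotation and counting program are not given in the sources used here. In 13748 genes with at least 10 counts per library, the deposited FPKM implied 1 length per gene (largest relative deviation 5.03e-05), so FPKM is the count rescaled by length and depth. Coordinates come from GENCODE 29 (GRCh38).

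Counts were tested with edgeR 4.0.16 in R 4.3.3 (filterByExpr, TMM scaling, robust quasi-likelihood F test, Benjamini-Hochberg over all 15063 genes tested, called at adjusted p under 0.05). SE is the absolute log2 fold change over the square root of F. CPM uses TMM-scaled library sizes. Alternatives were RLE or no scaling, other filters, DESeq2 1.42.0, limma-voom (limma 3.58.1), a non-robust fit, a replicate block and each library left out. Simulated counts with known changes were used to check edgeR. It recovered 1.54% of 1.5-fold, 38.5% of 2-fold and 90.5% of 4-fold changes, with 8 false calls. A tested member that was not called may thus still have changed by 2-fold, and 2 members by more. On the log2 scale the edgeR intervals ran from -1.92 to 0.85 for MMP1 and from -1.82 to 0.42 for TIMP2. MMP3, MMP10 and MMP13 were not tested, so no limit on their change is given. Floors cover counting error only. Promoter windows hold bases before both RefSeq and GENCODE starts.

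The members and lists were chosen with earlier results of these data known. Named genes were all members, KMT2C, and of each list the called genes or otherwise at most 4 with the smallest p. Listed genes without a test, such as LUM and PDGFRA, were named outside this rule. The result for the plasminogen activator list is not reported here. CD44, BSG, SDC1, ITGAV, ITGA2, PDGFRB, THY1, TIMP4 and the comparison of siNC replicate 2 with its group were added after values were seen.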

Additional observations from a re-analysis of the deposited data

How the results depend on the processing

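The count of changed genes was 855 with DESeq2 and 968 with the replicate block, against 226, and ran from 16 (without siNC replicate 2) to 620 (without siNC replicate 3) when 1 library was left out. The count of changed members was 1 without the low-count filter, 1 with DESeq2 and 1 with the replicate block, each time TIMP3, and 0 in every fit that left out a library. The replicate block gave TIMP3 an adjusted p of 0.00761 and MMP9, not called, one of 0.0510. Same-numbered libraries correlated at 0.02, 0.11 and 0.39 in their deviations from the group means. For siKMT2C replicate 2 the best match was siNC replicate 1 (0.32), and siKMT2C replicate 1 had none (-0.04 to 0.03). Replicate 3 matched its own number best. The numbers were not taken to pair the samples. Signs turned in some fits that left out a library for MMP2 (-0.21 to 0.064), COL1A2 (-0.87 to 0.19), PMEL (-0.50 to 0.065), SPINT1 (-0.25 to 0.065) and ST14 (-0.29 to 0.033). Of the named genes' values under the 8 other settings, 326 kept their direction and side of the threshold, 30 became called and 1 lost its call. With 1 library left out, 230 kept both, 6 became called and 28 lost their call. MMP1 had no value with a CPM of at least 1 in 3 libraries. The cause of these changes was not tested. Depth limits MMP1, MMP3, MMP10 and MMP13.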

Other observations

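The low TIMP2 value of siNC replicate 2 stood among 15 genes that lay more than 2 on the log2 scale below the mean of the other siNC libraries, of 10026 genes with a mean of at least 10 CPM. By the same measure the other 5 libraries had 9 to 21 such genes. Less far below was TXNDC5, at 34.7 CPM in siNC replicate 2 and 225 and 70.5 CPM in the other siNC libraries. The lowest were RPS10-NUDT3, ARPIN-AP3S2 and SNX22, of which the first 2 are read-through genes that share exons with their neighbours. RPS10-NUDT3 was at 0 CPM in siNC replicate 2 and at 25.6 and 27.2 CPM in the other siNC libraries. The 4 genes that overlap TIMP2 had 0 to 8 counts in any library. These genes were chosen after their values were seen.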
